A study of Mus musculus with 12 samples.

Results

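The genes described here are the 4 members of the mouse reproductive homeobox X-linked (Rhox) cluster that the array could read: Rhox5, Rhox6, Rhox9 and Rhox13. They were chosen as every probe set whose gene symbol in the platform annotation is one of these names, which gave 4 probe sets, 1 per gene, of 45037 probe sets other than controls. The RefSeq genes of assembly GRCm38.p6 include 42 Rhox genes, 33 of them protein coding, and the other members of the cluster carry no probe set with their symbol in the platform annotation. All 4 genes passed the filter on low signals and were among the 13984 genes tested. The genes were chosen by their array signals in the genotypes below, already known from these arrays, so their own differences are given as a description without a test.

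RNA came from embryonic stem (ES) cells of the mouse and was read on 12 Affymetrix expression arrays, 3 biological replicates for each of 4 genotypes. The double deficient cells lacked both Ring1B and Eed and, per the labels, were made by targeting Ring1B in cells that already lacked Eed. The Eed deficient and the Ring1B deficient cells each came from gene targeting of the named gene, and the wild type cells carried neither change. No second line of any genotype is described, so a difference between genotypes cannot be told apart from a difference between lines. In bulk RNA, more cells of a type that expresses a gene cannot be told apart from more RNA of it per cell.

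The Rhox genes encode homeodomain transcription factors that lie side by side on the X chromosome and are used mainly in placenta, testis, epididymis and ovary. In most somatic cells their promoters carry DNA methylation and the genes are silent. Rhox5, first described as Pem, is the member known in ES cells, in extraembryonic tissue and in Sertoli cells, Rhox6 and Rhox9 (also Psx1 and Psx2) are placental and germ cell genes, and Rhox13 is a male germ cell gene. Ring1B, encoded by Rnf2, is the ubiquitin ligase of Polycomb repressive complex PRC1, and the Eed protein belongs to the core of PRC2, which methylates histone H3 at lysine 27.

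The RefSeq promoter table (GRCm38.p6) holds a window of 250 bases before and 50 bases after the start of Rhox5 and of Rhox13, the members whose signals differed most between the Ring1B deficient and wild type cells. It has no entry for Rhox6 or Rhox9. The windows are shown because promoter CpG methylation is the known form of silencing of this cluster, and capitals mark each CG. The Rhox5 window lies at chrX:37754358-37754657 on the plus strand, and the Rhox13 window at chrX:38120590-38120889, also on the plus strand.
Rhox5: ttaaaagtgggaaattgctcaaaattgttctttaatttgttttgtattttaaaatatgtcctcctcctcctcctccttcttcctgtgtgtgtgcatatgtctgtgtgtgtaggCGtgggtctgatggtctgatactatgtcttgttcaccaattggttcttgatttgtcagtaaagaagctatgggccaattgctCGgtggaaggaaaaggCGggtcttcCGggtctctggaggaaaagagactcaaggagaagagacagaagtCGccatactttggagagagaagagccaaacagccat
Rhox13: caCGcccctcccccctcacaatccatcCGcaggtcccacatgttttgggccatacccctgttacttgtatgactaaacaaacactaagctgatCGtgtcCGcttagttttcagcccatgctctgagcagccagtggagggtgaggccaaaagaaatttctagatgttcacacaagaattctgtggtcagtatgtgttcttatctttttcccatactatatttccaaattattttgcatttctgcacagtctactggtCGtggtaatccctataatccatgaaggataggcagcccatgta
Each window holds 5 CG pairs, with a GC content of 43.7% for Rhox5 and 45.3% for Rhox13. The median over 32841 windows of the same length was 7 CG pairs, and 43.6% of windows held 5 or fewer. Motifs of factors known at germline gene promoters were searched on both strands. The E-box CACGTG was in neither window, against 7.153% of all windows, and the E2F site TCCCGC was in neither, against 19.98%. The ETS core CCGGAA had 1 match in the Rhox5 window and 0 in the Rhox13 window, and 14.9% of all windows held it. The arrays give no methylation or binding at these windows.

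The genes targeted in each line served as a check of the labels. For Eed, the brighter probe set gave a mean signal of 71.2 ± 21.0 in double deficient, 37.8 ± 13.1 in Eed deficient, 1642 ± 283 in Ring1B deficient and 1428 ± 159 in wild type cells (SD, n = 3 each, as for all means below). The brightest of the 5 Rnf2 probe sets gave 383 ± 18.8 in double deficient, 779 ± 168 in Eed deficient, 468 ± 65.7 in Ring1B deficient and 851 ± 124 in wild type cells. Of the other 4 probe sets, the next brightest gave 275 ± 22.6 in double deficient, 531 ± 106 in Eed deficient, 330 ± 23.1 in Ring1B deficient and 632 ± 74.6 in wild type cells. The third, much dimmer, went the other way, with 38.5 ± 3.80 in double deficient, 22.3 ± 3.23 in Eed deficient, 60.2 ± 8.27 in Ring1B deficient and 29.9 ± 7.02 in wild type cells, and the last 2 had means under 20 in every genotype. Signals are on a linear scale on which every array had a trimmed mean of 100 and a median between 19.07 and 28.01. Replicates of a genotype correlated across genes with r between 0.9627 and 0.984, where genes are not independent replicates. The summed signal of 10 ES cell markers was 14888 to 17030 in double deficient, 17125 to 20514 in Eed deficient, 19993 to 22166 in Ring1B deficient and 21118 to 22170 in wild type cells. At a limma adjusted p under 0.05, 7 of the 10 fell in double deficient, 1 (Pou5f1) in Eed deficient and 0 in Ring1B deficient cells, and 0 rose. Of all tested genes 11.4%, 4.56% and 2.5% fell. The median difference of the 10 from wild type was -0.70 in double deficient cells. Its bearing on the Rhox signals was not tested.

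Rhox5 was already well above the array median in wild type cells, and it was higher in all 3 mutants by a similar amount. Its signals were 1339, 1815 and 1447 in double deficient cells. They were 1188, 1965 and 1938 in Eed deficient and 1261, 1623 and 1656 in Ring1B deficient cells. In wild type cells they were 487, 503 and 832. Every mutant array lay above every wild type array, and the 3 mutants overlapped one another. The means were 1533 ± 250 in double deficient, 1697 ± 441 in Eed deficient, 1513 ± 219 in Ring1B deficient and 607 ± 195 in wild type cells. Differences are given as means of log2(signal + 5) with the SE of the difference between the arrays of both groups. The mutant minus wild type difference of Rhox5 was 1.36 (SE 0.28) for double deficient, 1.48 (SE 0.34) for Eed deficient and 1.34 (SE 0.28) for Ring1B deficient cells. Between mutants the differences were smaller than their errors, at -0.12 (SE 0.27) for double minus Eed deficient and 0.14 (SE 0.27) for Eed minus Ring1B deficient cells. For double minus Ring1B deficient cells it was 0.02 (SE 0.18), and -0.23 when each array was centred on its median. Within an array, Rhox5 was brighter than 97.37% to 98.62% of probe sets in the mutants and than 92.9% to 95.82% in wild type cells.

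Rhox6 had its highest signals in the 2 genotypes without Eed. The signals were 199, 436 and 271 in double deficient cells. They were 277, 554 and 360 in Eed deficient and 28.0, 87.9 and 45.1 in Ring1B deficient cells. In wild type cells they were 16.5, 27.1 and 22.5, close to the array median. The 2 Eed-lacking genotypes overlapped each other and lay above all other arrays, and the lowest Ring1B deficient array lay just above the highest wild type array. The means were 302 ± 122 in double deficient, 397 ± 142 in Eed deficient, 53.7 ± 30.8 in Ring1B deficient and 22.1 ± 5.33 in wild type cells. As a ratio of mean signals to wild type, this was 13.7 for double deficient, 17.99 for Eed deficient and 2.433 for Ring1B deficient cells. On the log2 scale the difference from wild type was 3.45 (SE 0.37) for double deficient, 3.85 (SE 0.33) for Eed deficient and 1.00 (SE 0.46) for Ring1B deficient cells. The last ran from 0.61 to 1.35 when 1 array was left out, with the lowest value without Ring1B deficient array 2. Double deficient minus Ring1B deficient gave 2.45 (SE 0.54), and double deficient minus Eed deficient gave -0.40 (SE 0.43), or -0.70 to -0.14 with 1 array left out. Among the 13984 tested genes, Rhox6 had the 6th highest difference between Eed deficient and wild type cells.

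Rhox9 was high in the same 2 genotypes, and Ring1B deficient arrays overlapped wild type arrays. Its signals were 93.5, 271 and 135 in double deficient cells. They were 134, 307 and 224 in Eed deficient and 15.7, 27.9 and 15.8 in Ring1B deficient cells. In wild type cells they were 20.2, 26.0 and 20.9. The lowest array without Eed was above the highest array with it. The means were 166 ± 92.8 in double deficient, 222 ± 86.3 in Eed deficient, 19.8 ± 6.99 in Ring1B deficient and 22.4 ± 3.17 in wild type cells. The log2 difference from wild type was 2.52 (SE 0.45) for double deficient, 2.98 (SE 0.35) for Eed deficient and -0.17 (SE 0.24) for Ring1B deficient cells, the last between -0.39 and -0.06 with 1 array left out. Double minus Ring1B deficient gave 2.69 (SE 0.49) and Eed minus Ring1B deficient gave 3.15 (SE 0.40), the 2nd highest of all tested genes in that comparison. Double minus Eed deficient was -0.46 (SE 0.55), or -0.87 to -0.13 with 1 array left out. In Ring1B deficient and wild type arrays the Rhox9 signal was near the middle of the array, above 43.24% to 57.01% of probe sets in Ring1B deficient and 50.42% to 53.66% in wild type cells.

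Rhox13 had another order, with its high signals in the 2 genotypes without Ring1B. Its signals were 555, 639 and 568 in double deficient cells. They were 97.0, 194 and 144 in Eed deficient and 362, 471 and 496 in Ring1B deficient cells. In wild type cells they were 79.6, 84.5 and 122. The double deficient arrays lay above all others, the Ring1B deficient arrays came next without overlap, and Eed deficient arrays overlapped wild type arrays. The means were 587 ± 45.1 in double deficient, 145 ± 48.5 in Eed deficient, 443 ± 71.3 in Ring1B deficient and 95.5 ± 23.4 in wild type cells. The log2 difference from wild type was 2.58 (SE 0.19) for double deficient, 0.55 (SE 0.33) for Eed deficient and 2.17 (SE 0.23) for Ring1B deficient cells. The Eed deficient value ran from 0.32 to 0.80 with 1 array left out, and was lowest without Eed deficient array 2. Double minus Eed deficient gave 2.03 (SE 0.29), the 15th highest of all tested genes. Double minus Ring1B deficient gave 0.41 (SE 0.15), or 0.16 when arrays were centred on their medians. Eed minus Ring1B deficient gave -1.62 (SE 0.31), with no overlap.

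**Figure D1:**
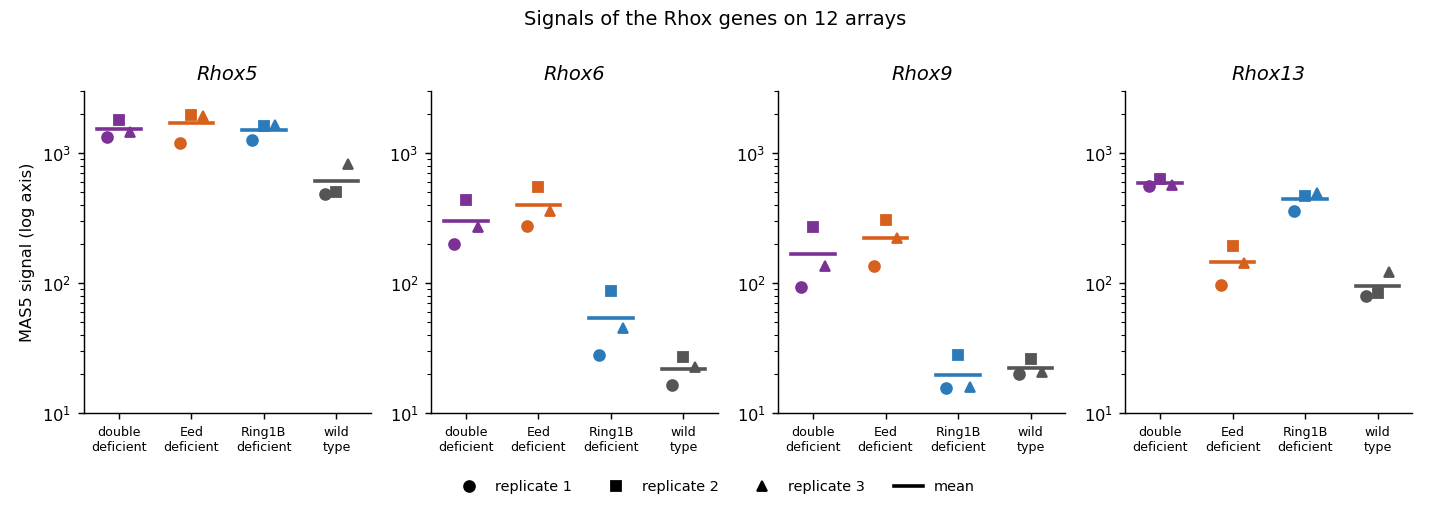
MAS5 signal (log axis) of the 4 Rhox genes on each of the 12 arrays, by genotype, with 1 point per replicate and a bar at the mean of 3. Rhox5 lies higher in all 3 mutants, Rhox6 and Rhox9 in the 2 genotypes without Eed, and Rhox13 in the 2 genotypes without Ring1B.

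Counted over the 4 genes, all arrays of the mutant lay above all wild type arrays for 4 genes in double deficient cells, where 27.8% of all tested genes did so. The count was 3 genes in Eed deficient cells, against 18.6% of all tested genes, and 3 in Ring1B deficient cells, against 11.9%. Rhox13 was the gene that overlapped in Eed deficient cells, and Rhox9 the one in Ring1B deficient cells. Double deficient arrays lay above Ring1B deficient arrays for 3 genes (26% of all genes) and above Eed deficient arrays for Rhox13 alone (15.4%). Eed deficient arrays lay above Ring1B deficient arrays for 2 genes (13.9%) and below them for 1 (7.87%). These shares are background, and since the choice of the genes used the same comparisons, nothing is read from the counts. The median difference of the 4 genes from wild type was 2.55 in double deficient, 2.23 in Eed deficient and 1.17 in Ring1B deficient cells. The median of all tested genes was 0.10 in double deficient, 0.03 in Eed deficient and -0.01 in Ring1B deficient cells.

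The double deficient cells allow each gene's difference to be set beside the sum of the differences in the cells that lack 1 protein. For Rhox13 the difference of double deficient from wild type cells was 2.58 and the sum was 2.72, a gap of -0.14 (SE 0.37). For Rhox9 it was 2.52 and the sum 2.81, a gap of -0.29 (SE 0.60). Both gaps were smaller than an SE that treats the arrays as unpaired. Taken between arrays of the same replicate number, the Rhox9 gap was -0.22, -0.26 and -0.40 for numbers 1 to 3, and the Rhox13 gap was 0.34, -0.72 and -0.03. The double deficient array lay below the Eed deficient array of its number for 3 of 3 numbers, for Rhox6 and for Rhox9. For Rhox6 the difference was 3.45 and the sum 4.86, a gap of -1.41 (SE 0.64), or -1.09, -1.87 and -1.26 for numbers 1 to 3. For Rhox5 the difference was 1.36 and the sum 2.83, a gap of -1.47 (SE 0.39), or -1.19, -1.80 and -1.41 for numbers 1 to 3. Rhox5 in double deficient cells thus stood at the level it had in the cells that lack 1 protein.

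**Figure D2:**
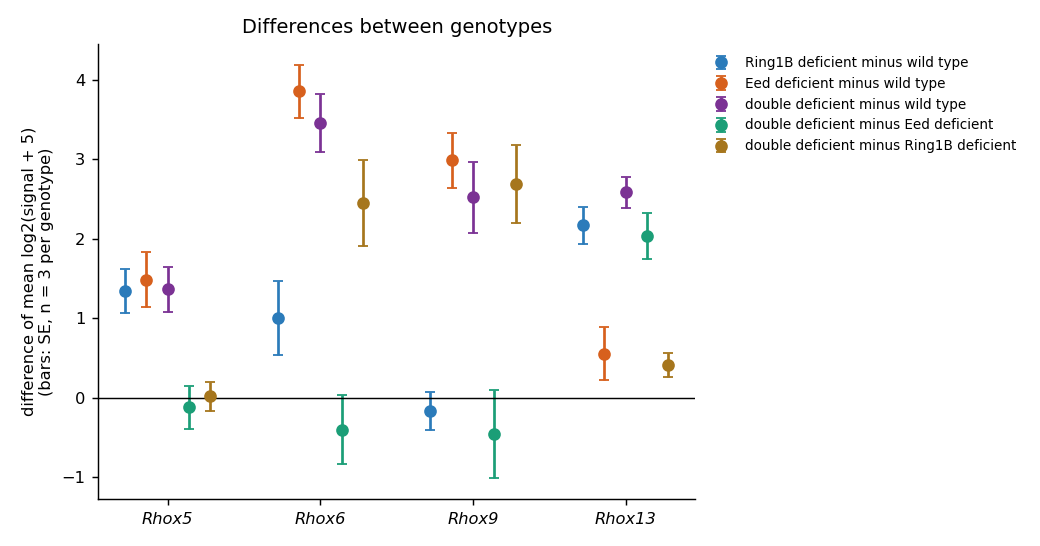
Difference of mean log2(signal + 5) for each Rhox gene in 5 comparisons, each point the difference of 2 means of 3 arrays and each bar its SE. For Rhox6 and Rhox9 the Eed deficient and double deficient points lie between 2.52 and 3.85, while for Rhox13 the Ring1B deficient (2.17) and double deficient (2.58) points are the high ones.

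The genes also varied among replicates in a shared way. Replicate 1 had the lowest signal in 4 of 4 genotypes for each of the 4 genes, and replicate 2 had the highest in 4 of 4 genotypes for Rhox6 and Rhox9. For Rhox5 and for Rhox13, replicate 2 was the highest in 2 genotypes and replicate 3 in the other 2. The summed signals of 17 extraembryonic endoderm markers and of 8 male germ cell markers were also highest in replicate 2 of every genotype. That of the Sertoli cell markers was so in all genotypes but Eed deficient. The endoderm sum was 9710, 11422 and 10258 in double deficient replicates 1 to 3, 7421, 9644 and 5999 in Eed deficient, 4485, 6231 and 4437 in Ring1B deficient and 809, 926 and 822 in wild type. Unlike the Rhox signals, it was lowest in replicate 3 in Eed deficient and Ring1B deficient cells. The part of these cells in the Rhox signals was not tested. Over the 12 arrays, Rhox6 and Rhox9 had Pearson's r = 0.9586 on log2(signal + 5), which ranked 6th among 13983 genes for likeness to Rhox9 and 17th for likeness to Rhox6. Rhox9 and Rhox13 had r = 0.1457, and Rhox5 had r = 0.7485 with Rhox6, 0.6626 with Rhox13 and 0.5825 with Rhox9. These are descriptions over arrays that fall into 4 genotypes and share their replicate numbers. Rhox6 and Rhox9 are related paralogs, and whether their probe sets bind each other's transcripts was not tested.

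The 5 genes most like each member over the 12 arrays were found by Pearson's r, as a description. Those nearest Rhox5 were Sptssa, a subunit of serine palmitoyltransferase (r = 0.981), Armc2 (0.9668), S100a10, the annexin A2 partner (0.9652), Dkkl1, a secreted Dickkopf-like protein (0.9586), and Arpin, an Arp2/3 inhibitor (0.9582). S100a10 had a signal of 1855 ± 133 in double deficient, 1775 ± 369 in Eed deficient, 1463 ± 78.7 in Ring1B deficient and 656 ± 109 in wild type cells. Like Rhox5, it was at similar levels in the 3 mutants.

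Rhox6 was nearest to Fez2 (0.9782), the X-linked four-and-a-half LIM gene Fhl1 (0.973), the reticulum calcium-binding protein gene Calu (0.9709), Reep1 (0.9708) and the cardiac ankyrin repeat gene Ankrd1 (0.97). Ankrd1 had a signal of 358 ± 52.9 in double deficient, 317 ± 55.2 in Eed deficient, 109 ± 12.9 in Ring1B deficient and 61.0 ± 8.21 in wild type cells. Rhox9 was nearest to Tmcc1 (0.9772), Mfsd6 (0.9742), the X-linked 3830417A13Rik (0.9723), Dmkn (0.9636) and Tcaf1 (0.9591). 3830417A13Rik had a signal of 100.3 ± 63.3 in double deficient, 91.8 ± 30.2 in Eed deficient, 14.8 ± 1.72 in Ring1B deficient and 22.5 ± 6.99 in wild type cells.

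Rhox13 was nearest to Slc25a31, the testis form of the ADP/ATP carrier (0.9698), Syce1, of the synaptonemal complex central element (0.9567), Tada1 (0.955), Cryl1 (0.9508) and the X-linked Taf7l, a germ cell TFIID subunit (0.948). Syce1 had a signal of 867 ± 92.9 in double deficient, 323 ± 28.6 in Eed deficient, 550 ± 95.1 in Ring1B deficient and 186 ± 68.7 in wild type cells. Slc25a31 had 789 ± 322 in double deficient, 225 ± 88.3 in Eed deficient, 562 ± 158 in Ring1B deficient and 109 ± 52.4 in wild type cells. The choice of these 5 genes depended on the measure. With Spearman's rho, 3 of the 5 were again among the nearest of Rhox13, 1 of 5 for Rhox5 and for Rhox6, and 0 of 5 for Rhox9.

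**Figure D3:**
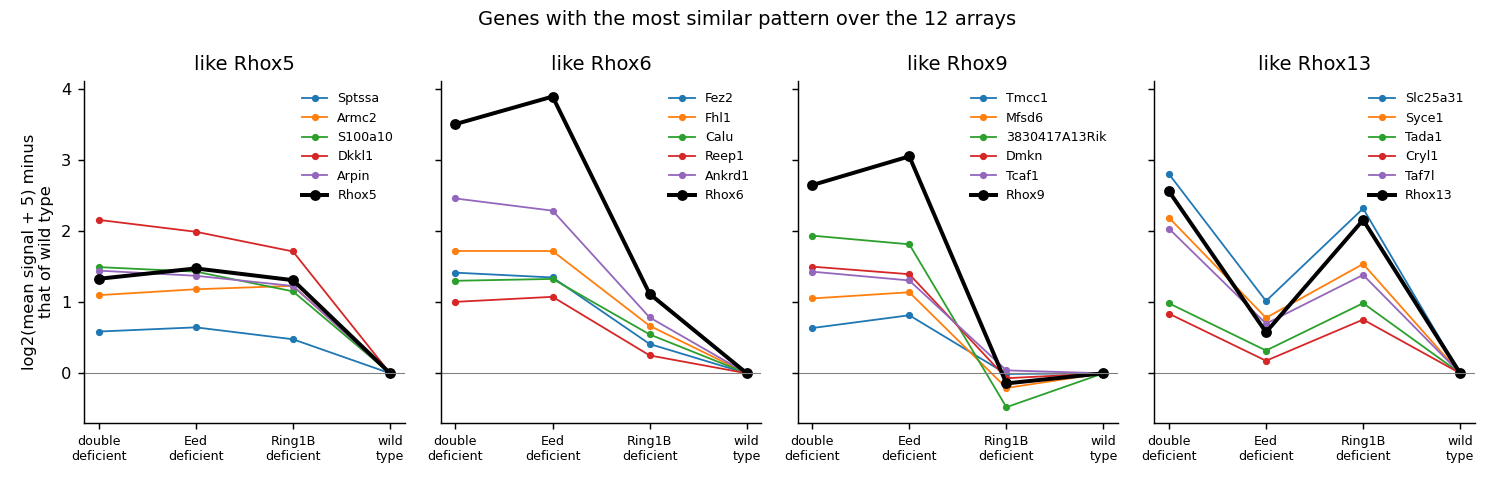
Mean signal by genotype, as log2(mean + 5) minus that of wild type cells, for each Rhox gene (black) and the 5 genes with the highest Pearson's r to it over 12 arrays. The panels show the 3 mutants level for Rhox5, a low Ring1B deficient point for Rhox6 and Rhox9, and a low Eed deficient point for Rhox13.

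The nearest tested genes on either side of the cluster were read beside it. The 10 before Rhox1 lay within 396.6 kb, but of the 10 after the last Rhox gene only 4 lay within 1000 kb and the other 6 were 3489 to 6785 kb away (RefSeq, GRCm38.p6). Of these 20 genes, 2 rose and 0 fell in double deficient against wild type cells at a limma adjusted p under 0.05 (Benjamini-Hochberg over all 13984 genes), where 19.5% of all tested genes rose. In Eed deficient cells 0 rose and 0 fell (10.8% of all tested genes rose), with 4 at an unadjusted p under 0.05. In Ring1B deficient cells 1 rose and 0 fell (4.68% of all rose). C1galt1c1, the chaperone of the core 1 galactosyltransferase, 324.8 kb from the cluster, had a signal of 169 ± 9.66 in double deficient and 92.4 ± 21.3 in wild type cells (log2 difference 0.86, adjusted p = 0.00476). In Ring1B deficient cells it had 156 ± 10.7 (difference 0.75, adjusted p = 0.0342). Dcaf12l1, 6481 kb away, had 284 ± 78.4 in double deficient and 108 ± 14.8 in wild type cells (1.33, adjusted p = 0.000733). In double minus Ring1B deficient cells, Dcaf12l1 differed by 1.07 (limma adjusted p = 0.00642) and Mdrl, 396.6 kb from the cluster, by -0.55 (0.0192). Mdrl also differed by -0.57 (0.0413) in Eed minus Ring1B deficient cells. The nearest tested genes were not past the threshold. Gm9, 2.763 kb away on the Rhox1 side, had log2 differences of 0.67, 0.46 and 0.30 in double deficient, Eed deficient and Ring1B deficient cells, and Lamp2, 93.62 kb away on the other side, had 0.27, 0.33 and 0.53. Leaving out wild type array 3, any 1 Ring1B deficient array, or double deficient array 1 or 3 made the Ring1B deficient count 0. Leaving out wild type array 1 or 2, or Eed deficient array 1, made the Eed deficient count 1.

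Zbtb33, which encodes the methyl-CpG binding protein Kaiso, lies between Rhox genes in the RefSeq order. Its signal was 237 ± 16.9 in double deficient, 213 ± 5.69 in Eed deficient, 226 ± 28.7 in Ring1B deficient and 208 ± 17.2 in wild type cells. Its log2 difference from wild type was 0.18 (limma adjusted p = 0.329) in double deficient, 0.04 (0.896) in Eed deficient and 0.12 (0.706) in Ring1B deficient cells. Among the 452 other X-linked genes tested, 25.9% rose in double deficient, 15.9% in Eed deficient and 6.86% in Ring1B deficient cells. Over all tested genes the share was 19.5% in double deficient, 10.8% in Eed deficient and 4.68% in Ring1B deficient cells, and the difference between the X-linked genes and the rest was not tested.

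**Figure D4:**
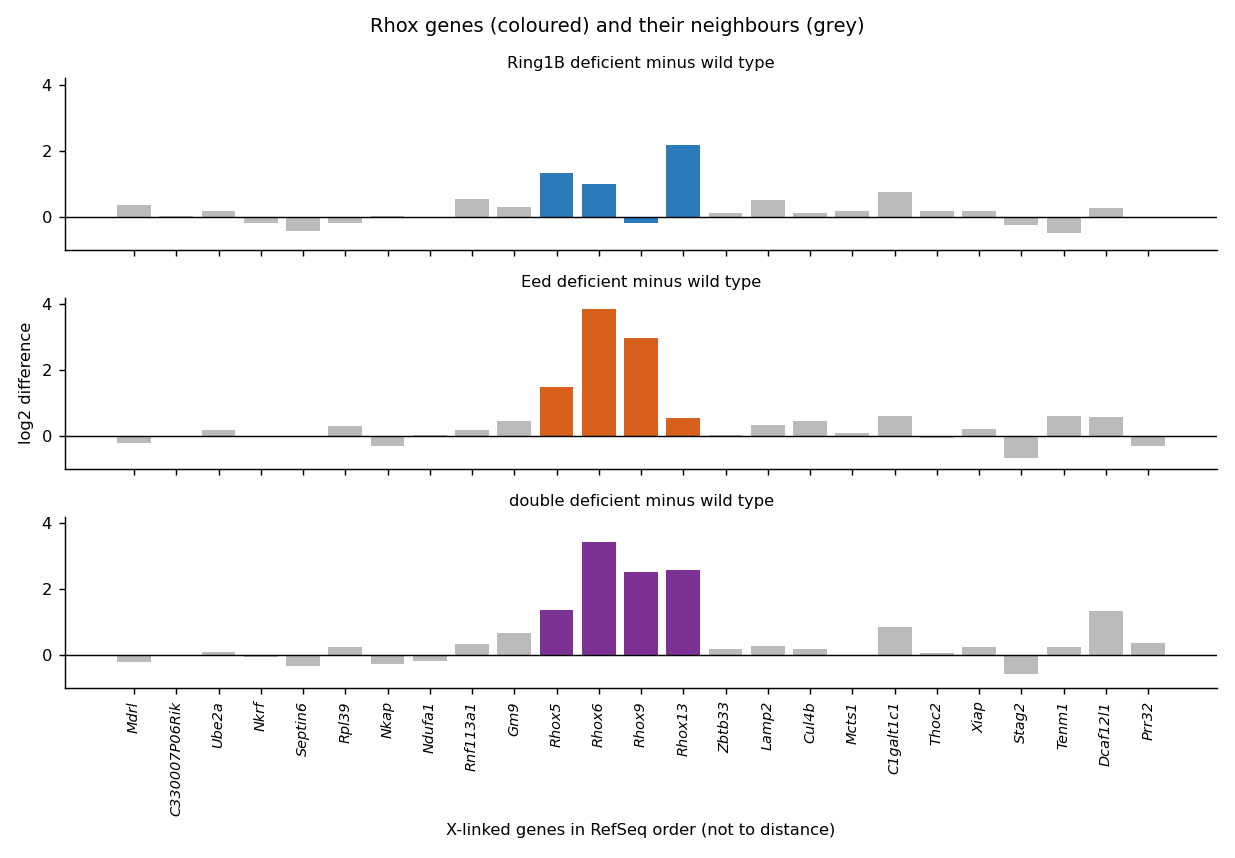
Difference from wild type in log2(signal + 5) for the 4 Rhox genes (coloured), 20 neighbours and Zbtb33 (grey), in RefSeq order along the X chromosome and not to distance. The grey bars of the neighbours run from -0.66 to 0.60 in Eed deficient cells, while Rhox6 and Rhox9 stand at 3.85 and 2.98.

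Since Rhox5, Rhox6 and Rhox9 are used in extraembryonic tissue, markers of those cells were read beside them. Of 17 extraembryonic endoderm markers tested, 15 rose in double deficient, 15 in Eed deficient and 14 in Ring1B deficient cells, and 0 fell. Of all tested genes 19.5% rose in double deficient, 10.8% in Eed deficient and 4.68% in Ring1B deficient cells. The markers' summed signal was 9710 to 11422 in double deficient, 5999 to 9644 in Eed deficient, 4437 to 6231 in Ring1B deficient and 809 to 926 in wild type cells. Sox17, an endoderm transcription factor, averaged 758 ± 87.4 in double deficient, 358 ± 32.6 in Eed deficient, 194 ± 33.2 in Ring1B deficient and 14.1 ± 3.46 in wild type cells. The summed signal of the 8 trophoblast markers on the array, of 10 listed, was 329 to 452 in double deficient, 273 to 305 in Eed deficient, 193 to 265 in Ring1B deficient and 115 to 141 in wild type cells. Of the 5 tested, 4 rose in double deficient, 4 in Eed deficient and 2 in Ring1B deficient cells, beside 19.5%, 10.8% and 4.68% of all genes. Cdx2 rose by 1.92 (limma adjusted p = 0.000968), 1.59 (0.00704) and 1.36 (0.0286) in double deficient, Eed deficient and Ring1B deficient cells. Eomes rose by 1.36 (0.00057), 1.20 (0.0029) and 1.22 (0.00493) in the same order. Hand1 and Plac1 rose in double deficient and Eed deficient cells, and Ascl2 was not past the threshold. Tpbpa and Elf5 were not among the 5 tested. Tpbpa, the defining spongiotrophoblast marker, averaged 4.19 ± 2.50 in double deficient, 4.33 ± 4.08 in Eed deficient, 2.46 ± 2.27 in Ring1B deficient and 1.77 ± 0.704 in wild type cells, far below the array medians. Elf5, a trophoblast stem cell factor, averaged 13.8 ± 1.10 in double deficient, 7.43 ± 4.49 in Eed deficient, 5.88 ± 4.72 in Ring1B deficient and 6.28 ± 4.61 in wild type cells. The part of such cells in the Rhox signals was not tested.

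Markers of other cells gave the following values. The summed signal of 14 fibroblast and feeder cell markers was 4929 to 5268 in double deficient, 1973 to 4937 in Eed deficient, 1071 to 1530 in Ring1B deficient and 1224 to 1588 in wild type cells. Of the 14, 11 rose in double deficient, 4 in Eed deficient and 0 in Ring1B deficient cells, and 0 fell. The shares of all genes that rose were 19.5%, 10.8% and 4.68%. The Eed deficient array at 4937 was replicate 3, whose Rhox6 and Rhox9 signals lay between those of the other 2 replicates. For 8 male germ cell markers the sum was 1078 to 1673 in double deficient, 658 to 1373 in Eed deficient, 1352 to 1883 in Ring1B deficient and 709 to 1639 in wild type cells. Sycp3 is a large part of that sum, at 357 ± 159 in double deficient, 450 ± 275 in Eed deficient, 490 ± 186 in Ring1B deficient and 693 ± 346 in wild type cells. The germ cell helicase gene Ddx4 averaged 716 ± 91.6 in double deficient, 313 ± 82.4 in Eed deficient, 895 ± 68.8 in Ring1B deficient and 331 ± 96.5 in wild type cells. It rose by 1.14 (limma adjusted p = 0.00143) in double deficient and 1.46 (0.000933) in Ring1B deficient cells. Of the 5 male germ cell markers tested, 2 rose in double deficient, 0 in Eed deficient and 1 in Ring1B deficient cells, beside 19.5%, 10.8% and 4.68% of all genes, and 0 fell. The protamine gene Prm2 and Tnp1, which define late sperm cells, had means under 20 in every genotype. For 9 Sertoli cell markers it was 1210 to 1703 in double deficient, 954 to 1702 in Eed deficient, 428 to 751 in Ring1B deficient and 286 to 377 in wild type cells. Most of that sum was Clu, a secreted chaperone gene that other cells also use, at 1339 ± 269 in double deficient, 1269 ± 384 in Eed deficient, 451 ± 148 in Ring1B deficient and 221 ± 54.4 in wild type cells. Sox9, a defining Sertoli cell factor, averaged 8.50 ± 6.09 in double deficient and 7.92 ± 1.25 in wild type cells, and Amh and Cldn11 were below 20 in every mean. Of the 6 Sertoli cell markers tested, 3 rose in double deficient (Clu, Dhh and Fshr), 1 in Eed deficient (Clu) and 1 in Ring1B deficient cells (Clu), and 0 fell. The part of such cells in the Rhox signals was not tested.

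Other genes of the germline were read next, since Rhox genes share their tissue. Of 27 germline genes tested, 17 rose and 3 fell in double deficient cells, beside 19.5% and 11.4% of all tested genes. These shares stand for 2723 genes that rose and 1589 that fell, which became 1691 and 3141 when arrays were centred on their medians. In Eed deficient cells 9 rose and 1 fell (10.8% and 4.56% of all genes), and in Ring1B deficient cells 15 rose and 0 fell (4.68% and 2.5%). The median log2 difference from wild type was 1.14 in double deficient, 0.55 in Eed deficient and 1.46 in Ring1B deficient cells. With wild type array 1 or Eed deficient array 2 left out, the 10 calls in Eed deficient cells became 6. Mael, of the piRNA pathway, averaged 1185 ± 133 in double deficient, 432 ± 65.9 in Eed deficient, 1794 ± 148 in Ring1B deficient and 221 ± 43.9 in wild type cells. It rose by 2.41 (limma adjusted p = 2.71e-07) in double deficient, 0.96 (0.00129) in Eed deficient and 3.01 (1.05e-07) in Ring1B deficient cells. Slc25a31, near Rhox13 in its pattern, rose by 2.82 (adjusted p = 6.47e-05) in double deficient and 2.38 (0.00102) in Ring1B deficient cells, and differed by 1.04 (0.0638) in Eed deficient cells. Tex101, a germ cell surface protein, rose by 2.31 (0.00907) in double deficient and 2.86 (0.00953) in Ring1B deficient cells, and differed by 0.70 (0.467) in Eed deficient cells. The meiotic gene Hormad1 fell by 1.81 (0.00119) in double deficient and by 2.01 (0.00123) in Eed deficient cells.

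Eed deficient and Ring1B deficient cells were compared directly. Of the 27 germline genes, Eed deficient cells had 1 higher and 8 lower than Ring1B deficient cells, where 3.37% and 1.11% of all tested genes were, and with replicate number as a block the lower count was 14. It was 5 without Ring1B deficient replicate 3 or Eed deficient replicate 3. The median difference was -0.75. Rhox13 lay on the same side, at -1.62, and Rhox6 and Rhox9 on the other, at 2.85 and 3.15. Mael differed by -2.05 (limma adjusted p = 2.53e-05) and Tex11, a meiotic recombination gene, by -1.71 (0.00186).

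X-linked testis and germline genes outside the cluster were measured with 12 of 48 listed genes tested, 3 of which (Taf7l, Tex11 and Tex13b) are also in the germline list. In double deficient cells 6 rose and 1 fell, in Eed deficient cells 6 rose and 1 fell, and in Ring1B deficient cells 4 rose and 1 fell. The shares of all genes that rose and fell were 19.5% and 11.4% in double deficient, 10.8% and 4.56% in Eed deficient and 4.68% and 2.5% in Ring1B deficient cells. The 7 calls in Eed deficient cells became 4 without Eed deficient replicate 2. Tex13b averaged 400 ± 37.4 in double deficient, 245 ± 56.8 in Eed deficient, 63.8 ± 5.69 in Ring1B deficient and 7.75 ± 3.36 in wild type cells. It rose by 5.02 (limma adjusted p = 5.84e-09) in double deficient, 4.31 (2.49e-08) in Eed deficient and 2.47 (9.92e-06) in Ring1B deficient cells. Tex13b thus had the order of Rhox6 between the single mutants, and the difference of 1.84 between Eed and Ring1B deficient cells passed the test (adjusted p = 0.000708). Tex11 averaged 387 ± 42.7 in double deficient, 138 ± 14.4 in Eed deficient, 468 ± 92.6 in Ring1B deficient and 67.4 ± 30.4 in wild type cells, with the order of Rhox13 between the single mutants. Taf7l rose by 2.04 (2.6e-05) in double deficient, 0.73 (0.0458) in Eed deficient and 1.41 (0.00204) in Ring1B deficient cells. Its difference between Eed and Ring1B deficient cells was -0.68 (0.12). Nxf3, an mRNA export factor paralog, went the other way, with 66.2 ± 17.9 in double deficient, 38.2 ± 11.1 in Eed deficient, 13.9 ± 7.71 in Ring1B deficient and 120 ± 38.6 in wild type cells. It fell by 1.52 (0.00574) in Eed deficient and by 2.77 (0.000141) in Ring1B deficient cells, and the difference in double deficient cells was -0.80 (0.07).

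Placenta and trophoblast genes had 17 of 28 listed genes tested. In double deficient cells 12 rose and 0 fell, and in Eed deficient cells 13 rose and 0 fell. In Ring1B deficient cells 9 rose and 0 fell. The shares of all genes that rose were 19.5%, 10.8% and 4.68%. The list was chosen with earlier results of these data known, so nothing is read from its counts beside these shares. The median log2 difference from wild type was 1.50 in double deficient, 1.27 in Eed deficient and 0.77 in Ring1B deficient cells. The 9 calls in Ring1B deficient cells became 5 with wild type array 1 or 3, or Ring1B deficient array 2, left out. The simple epithelial keratin Krt8 averaged 2273 ± 524 in double deficient, 1705 ± 387 in Eed deficient, 605 ± 220 in Ring1B deficient and 213 ± 133 in wild type cells. It rose by 3.52 (limma adjusted p = 7.66e-06) in double deficient, 3.11 (4.93e-05) in Eed deficient and 1.59 (0.0127) in Ring1B deficient cells. Plac1, an X-linked placental gene, averaged 142 ± 41.0 in double deficient, 55.6 ± 8.59 in Eed deficient, 22.1 ± 2.68 in Ring1B deficient and 14.3 ± 1.72 in wild type cells. It rose by 2.89 (4.97e-07) in double deficient and 1.64 (0.000162) in Eed deficient cells, and the difference in Ring1B deficient cells was 0.48 (0.205). The X-linked homeobox gene Esx1, also placental, rose by 1.50 (0.000108), 1.14 (0.00193) and 0.95 (0.0113) in double deficient, Eed deficient and Ring1B deficient cells. Between Eed and Ring1B deficient cells, 3 of the 17 genes had higher and 0 had lower signals in Eed deficient cells, beside 3.37% and 1.11% of all tested genes. The higher count was 7 with replicate number as a block and 5 without Ring1B deficient replicate 2. Plac1 was one of the 3 (difference 1.16, adjusted p = 0.00823).

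Primordial germ cell genes had 14 tested members. In double deficient cells 2 rose and 7 fell, and in both Eed deficient and Ring1B deficient cells 1 rose and 3 fell. Of all genes, 19.5% rose and 11.4% fell in double deficient, 10.8% and 4.56% in Eed deficient and 4.68% and 2.5% in Ring1B deficient cells, so the counts that rose were near or below background. Dnd1, an RNA-binding protein of germ cells, fell by 1.34 (limma adjusted p = 0.000118) in double deficient and 1.03 (0.002) in Eed deficient cells. Prdm1, a specifier of germ cells, fell by 1.35 (0.00135) in double deficient and 0.97 (0.0337) in Ring1B deficient cells. Its difference in Eed deficient cells was -0.78 (0.0535). Ifitm3, also called Fragilis, fell by 0.37 (0.036) in double deficient, 0.66 (0.00282) in Eed deficient and 0.79 (0.00151) in Ring1B deficient cells. Elf3 was the gene that rose in Eed deficient (0.58, 0.0466) and in Ring1B deficient cells (0.68, 0.0363), and it rose by 0.93 (0.00175) in double deficient cells. The 9 calls in double deficient cells became 5 without double deficient replicate 2 or 3. The 4 in Eed deficient cells became 2 without Eed deficient replicate 3. The 4 in Ring1B deficient cells became 1 without wild type replicate 2, and 2 without Ring1B deficient replicate 3 or double deficient replicate 3.

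Genes of DNA methylation and H3K9 methylation had 22 tested members. The list includes known silencers of the Rhox cluster, and also genes of enzymes that remove these marks, such as Tet1. In double deficient cells 2 rose and 6 fell, beside 19.5% and 11.4% of all genes. In Eed deficient cells 1 rose and 4 fell (10.8% and 4.56% of all genes), and in Ring1B deficient cells 1 rose and 1 fell (4.68% and 2.5%), near the background. The gene that fell in Ring1B deficient cells was Tet1, at 715 ± 286 against 1654 ± 311 in wild type cells (-1.28, limma adjusted p = 0.0472). The heterochromatin protein gene Cbx5 averaged 489 ± 34.9 in double deficient and 1029 ± 37.2 in wild type cells, and fell by 1.07 (limma adjusted p = 1.23e-05). It also fell by 0.47 (0.0112) in Eed deficient cells, and differed by -0.36 (0.0716) in Ring1B deficient cells. Suv39h2, an H3K9 methyltransferase, averaged 71.5 ± 8.95 in double deficient and 163 ± 3.22 in wild type cells, and fell by 1.15 (3.52e-05). In Eed deficient cells it fell by 0.45 (0.0353), and in Ring1B deficient cells the difference was -0.38 (0.111). Mbd2, a methyl-CpG binding protein, was the gene that rose in all 3 mutants, by 1.47 (3.62e-05), 0.96 (0.0021) and 1.07 (0.0018) in double deficient, Eed deficient and Ring1B deficient cells. The last 2 calls were lost when all probe sets of the gene were averaged. The 5 calls in Eed deficient cells became 3 when wild type array 1 or Eed deficient array 2 was left out, and 2 when array 3 of either group was. The 2 in Ring1B deficient cells became 1 when any 1 wild type or double deficient array, Ring1B deficient array 2 or 3, or Eed deficient array 3 was left out.

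The E2F6 and PRC1.6 list covers the variant Polycomb complex that is known to hold germline genes silent in ES cells, with 13 members tested. In double deficient cells 2 rose and 2 fell, in Eed deficient cells 2 rose and 2 fell, and in Ring1B deficient cells 2 rose and 1 fell. Beside 19.5% and 11.4% of all genes in double deficient, 10.8% and 4.56% in Eed deficient and 4.68% and 2.5% in Ring1B deficient cells, these are counts of 1 or 2 genes, and nothing about the complex is read from them. E2f6, the repressor E2F of this complex, rose by 0.70 (limma adjusted p = 0.00376) in double deficient cells, a call lost when arrays were centred on their medians or all its probe sets were averaged. It also rose by 0.59 (0.0185) in Eed deficient and 0.69 (0.0141) in Ring1B deficient cells. Yaf2, a subunit of variant PRC1, rose by 0.82 (adjusted p = 0.00137) in double deficient, 0.74 (0.00555) in Eed deficient and 0.57 (0.0393) in Ring1B deficient cells. Tfdp2, a partner of E2F factors, averaged 146 ± 1.42 in double deficient and 312 ± 31.1 in wild type cells, and fell by 1.06 (0.000159). In Eed deficient cells it fell by 0.59 (0.0165), and in Ring1B deficient cells by 0.53 (0.0471). The 4 calls in Eed deficient cells became 2 when wild type array 1 or Eed deficient array 1 or 2 was left out, and 1 when array 3 of either group was. The 3 in Ring1B deficient cells became 1 when array 1 of the wild type or Ring1B deficient cells, or double deficient array 1 or 3, was left out, and 0 when array 3 of the wild type or Ring1B deficient cells was.

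Of 4 genes reported as targets of Rhox5 in Sertoli cells, 3 were tested. By limma 0 of them were past the threshold in any mutant, with 1 at an unadjusted p under 0.05 in double deficient cells and 0 in the other 2. Of all tested genes, 19.5% rose and 11.4% fell in double deficient, 10.8% and 4.56% in Eed deficient and 4.68% and 2.5% in Ring1B deficient cells. With 3 genes tested, nothing about targets of Rhox5 is read from these counts. Unc5c, a netrin receptor gene, averaged 46.8 ± 12.5 in double deficient, 31.9 ± 5.70 in Eed deficient, 35.2 ± 6.23 in Ring1B deficient and 33.8 ± 1.89 in wild type cells. Its log2 difference from wild type was 0.39 (limma adjusted p = 0.18) in double deficient, -0.09 (0.831) in Eed deficient and 0.04 (0.953) in Ring1B deficient cells. The insulin gene Ins2 differed by 0.92 in double deficient cells (adjusted p = 0.0573), at signals under 20 in all means. The resistin gene Retn differed by -0.45, -0.41 and -0.74 in double deficient, Eed deficient and Ring1B deficient cells, with adjusted p between 0.246 and 0.48. The count in double deficient cells was 1 when wild type array 3 or Ring1B deficient array 2 or 3 was left out.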

How the data were processed

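The values the authors deposited are linear intensity values. The submitters' processing notes name MAS5 as the tool, and the sources used here give neither its version nor its settings. Every array had a trimmed mean of 100 with 2% left off at each end. No further normalization was applied. Of 45101 probe sets, 64 were controls. The filter asked that a probe set exceed the 40th percentile on 3 or more of the 12 arrays, and 30027 did. Genes came from probe sets with 1 symbol in the platform annotation, each gene by its probe set with the highest mean, 13984 in all. Signals were turned into log2(signal + 5), where 5 is the median 20th percentile over arrays, rounded. This scale understates differences of dim genes.

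All 12 arrays entered 1 limma fit (version 3.58.1, under R 4.3.3) that gave each genotype its own mean, with an intensity trend and Benjamini-Hochberg adjustment, at 0.05. The script was tested on simulated data. Adjusted p values come from tests of each difference against the spread between replicates, estimated over all genotypes together. The number of arrays limits the precision. Comparisons of mutants with wild type share the wild type arrays. Figures were drawn with Python 3.11.15 and matplotlib 3.10.9.

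The Rhox genes and the gene lists were chosen with earlier results of these data known. Counts of called list members beside the share of all genes are therefore a description. Genes named are the Rhox genes, the targeted genes, called neighbours, up to 4 called members of each list per comparison by size of difference, and the 5 genes most like each Rhox gene. Other genes named (Gm9, Lamp2, Zbtb33, Sertoli targets and markers) were added for their place or role. Replicate numbers were checked for pairing by correlating same-numbered deviations from the genotype means. The correlations ran from -0.048 to 0.614. They were over 0.1 for all 3 numbers only between Eed deficient and Ring1B deficient cells (0.3986, 0.6144 and 0.1787), so the block is given beside that comparison. Alternatives covered scaling, the added value, the filter, the choice of probe set, the intensity trend, the replicate block and leaving out each array.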

Additional observations from a re-analysis of the deposited data

Results flagged for a closer look

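The effect of Ring1B loss differed between cells without and with Eed for 4 of 34 named list genes and neighbours, against 1.9% of all 13984 tested genes, by the interaction term of the limma model (double deficient minus Eed deficient, minus the difference of Ring1B deficient from wild type). Mael had a difference of differences of -1.557 (adjusted p = 0.00374), with 1.45 in cells without Eed and 3.01 in cells with it. Tex13b had -1.75 (adjusted p = 0.0102), with 0.72 in cells without Eed and 2.47 in cells with it. Nxf3 had 3.484 (adjusted p = 0.0019), with 0.72 in cells without Eed and -2.77 in cells with it. Ifitm3 had 1.076 (adjusted p = 0.00775), with 0.29 in cells without Eed and -0.79 in cells with it. The 34 genes were named for called differences on these same arrays, which enter the interaction term. Nothing is therefore read from their count beside the share of all genes. No cause was tested for any of them.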

How the results depend on the processing

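Each Rhox difference has no second probe set to set it against, since every gene has 1, so the mean over probe sets was not run for them. Of 408 values of Rhox differences under the alternatives, 401 moved by less than the spread between replicates, and 0 tested results reversed. With an added value of 20, the Rhox6 difference from wild type was 2.88 for double deficient and 3.26 for Eed deficient cells, Rhox9 was 2.45 in Eed deficient cells, and its difference between Eed and Ring1B deficient cells was 2.55. The added value shrinks differences of dim signals by construction. With arrays centred on their medians, Rhox13 was 2.33 for double deficient minus wild type and 0.16 for double minus Ring1B deficient cells, and Rhox5 was -0.23 against Ring1B deficient cells. Median centring moved the median of all genes in double deficient minus wild type cells to -0.15, against 0.10 as deposited and 0.00052 after quantile normalization. The genes higher and lower became 1691 and 3141 (2723 and 1589 as deposited) in double deficient against wild type, 963 and 2226 (1781 and 836) against Ring1B deficient and 89 and 322 (150 and 115) against Eed deficient cells.

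The lower count in double against Eed deficient cells was 189 with quantile normalization and 74 without the intensity trend. With replicate number as a block, the higher and lower counts were 1276 and 948 for Ring1B deficient (655 and 350 without), 2295 and 1493 for Eed deficient (1509 and 637) and 2410 lower for double deficient against wild type (1589). They were 2721 and 1652 for double against Ring1B deficient and 655 and 648 for double against Eed deficient cells. The labels state no pairing, so the numbers are a hint from the data, not the design. This holds for Eed with Ring1B deficient cells too. With the block, list calls were 8 for X-linked genes in Ring1B deficient cells, 7 and 7 for primordial germ cell genes in Ring1B and Eed deficient cells, and 8, 11 and 14 for methylation genes in Ring1B, Eed and double deficient cells. They were 7 and 7 for PRC1.6 genes in Eed and double deficient cells and 1 for Sertoli targets in double deficient cells. Neighbours called were 2, 4 and 4 in Ring1B, Eed and double deficient cells, and between Eed and Ring1B deficient cells 14 germline genes were lower and 7 placental genes higher.

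Methylation genes called in Ring1B deficient cells were 1 with quantile normalization, without the filter, with the mean of probe sets and without the trend, and 1 in Eed deficient cells with the mean of probe sets. PRC1.6 genes called were 1 in Ring1B deficient cells with median centring, the mean of probe sets or no trend, 2 in Eed deficient cells with the mean of probe sets and 7 in double deficient cells with median centring. X-linked genes called in double deficient cells were 4 with the filter at the 60th percentile, Sertoli targets 1 with an added value of 20 or no trend, and neighbours 5 in double deficient cells with median centring and 1 in Eed deficient cells with the 60th percentile filter or the mean of probe sets. Among the 5 genes most like each Rhox gene, Spearman's rho kept 1 for Rhox5, 1 for Rhox6, 0 for Rhox9 and 3 for Rhox13, and quantile normalization kept 3 for Rhox5. The cause of these changes was not tested.

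Leaving out 1 array at a time, the genes higher and lower ran from 429 to 688 and 157 to 362 for Ring1B deficient, 1012 to 1559 and 332 to 685 for Eed deficient and 2005 to 2782 and 1017 to 1650 for double deficient against wild type. They ran from 982 to 1895 and 343 to 908 for double against Ring1B deficient, and 25 to 204 and 16 to 146 for double against Eed deficient cells. Germline calls in Eed deficient cells ran from 6 to 10, X-linked from 4 to 7, and placental calls in Ring1B deficient cells from 5 to 9. Primordial germ cell calls ran from 1 to 5, 2 to 5 and 5 to 9 in Ring1B, Eed and double deficient cells. Methylation genes ran from 1 to 2 in Ring1B and 2 to 5 in Eed deficient cells, PRC1.6 genes from 0 to 3 and 1 to 4, and Sertoli targets from 0 to 1 in double deficient cells. Neighbours ran from 0 to 1 in Ring1B and 0 to 1 in Eed deficient cells, and the Eed against Ring1B deficient calls from 5 to 9 for lower germline and 2 to 5 for higher placental genes. Of 3264 values for single genes, 3052 stayed on their side of the threshold, 166 lost the call and 46 gained it. Signals near the array median limit the Rhox6 and Rhox9 levels in Ring1B deficient and wild type cells.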
